A study of Mus musculus with 32 samples.

Results

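The 39 Hox genes of the mouse were followed through the embryonic and newborn brain. They were taken by symbol, as every Hoxa, Hoxb, Hoxc or Hoxd gene with a paralogue number, and are 39 of the 55291 symbols in the tables. Polyadenylated RNA was sequenced from 32 whole-brain libraries of strain C57BL/6J mice. The wild type (WT, Dhcr7+/+) and the knockout (KO, Dhcr7-/-) were each collected on embryonic days (E12.5, E14.5, then E16.5) and at birth (PND0), with 4 libraries in each of the 8 groups. Dhcr7 encodes the reductase that makes cholesterol from its last precursor, and its loss in people causes Smith-Lemli-Opitz syndrome. The labels do not say how the brain was cut from the spinal cord, or whether the 4 libraries of a group came from separate animals or litters. The p-values below therefore measure the spread between these libraries.

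Hox genes encode homeodomain transcription factors that give position along the head-to-tail axis. They lie in 4 clusters, and genes of the same paralogue number in different clusters are each other's closest relatives. Within a cluster, low paralogue numbers are transcribed from the hindbrain backwards and high numbers only towards the tail, while the forebrain and midbrain lack Hox transcripts. In a brain sample, Hox transcripts are therefore a measure of the hindbrain and of any spinal cord, ganglion, skin or other trunk tissue that came with it.

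On mouse build GRCm38 the Hoxa cluster (11 genes) lies on chromosome 6 from 52155590 to 52260880 on the minus strand. The Hoxb cluster (10 genes) lies on chromosome 11 from 96194316 to 96368256, the Hoxc cluster (9 genes) on chromosome 15 from 102921103 to 103036852, and the Hoxd cluster (9 genes) on chromosome 2 from 74668310 to 74765142, all on the plus strand. The genes sit close together, and 16 of the 39 share exonic bases with another annotated gene, 9 with a gene on the same strand and 10 with a gene on the opposite strand. Hoxd3 shares 62.8% of its exonic bases with others, Hoxb3 52.9%, all of it with the antisense transcript Hoxb3os, and Hoxd4 52.3%. The strand setting of the counting is not given in the sources used here, so reads from such partners cannot be told apart.

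The libraries held 13.87 to 28.32 M counts. The targeted transcript fell at every stage, and Dhcr7 in KO libraries was 32.7%, 18.9%, 27.2% and 16.1% of WT from E12.5 to PND0 (edgeR quasi-likelihood test, adjusted p 0.00824, 6.91e-29, 1.37e-09 and 5.6e-06). All 10 forebrain markers of a fixed list, Emx1 and Tbr1 among them, had counts in every library. Levels are given as counts in a library scaled to 1 M (CPM), scaled over the 32 libraries, and per kilobase of exon where genes are compared with each other. Where a library had 0 counts of a gene, up to 3 are allowed for, or 0.105 to 0.231 CPM depending on the library. Such limits and the intervals below cover counting error only, since the reads carry no molecular identifiers. Stages were deposited as separate tables, so stage and table cannot be told apart.

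Per kilobase of exon, Hoxa2 (mean of the 8 group levels 0.346 CPM per kb), Hoxd1 (0.261) and Hoxd8 (0.148) had the highest levels of the 39 genes, ahead of Hoxa3 (0.0580) and Hoxb3 (0.0569). The place of Hoxd1 rests on E12.5, where it was at 1.38 CPM per kb in WT and 0.702 in KO, and it was at or near 0 in every later group. The 250 bases before the annotated start of the first 3 are shown because the results turn on these genes. They are taken from RefSeq on GRCm38.p6, whose promoter table matched 22 of the 39 symbols with 24 windows. The Hoxa2 window is chr6:52164832-52165081 on the minus strand, the Hoxd1 window chr2:74762730-74762979 and the Hoxd8 window chr2:74704365-74704614, both on the plus strand. Each is written 5′ to 3′, ending at the base before the start. Capitals mark the letters TGATNNAT, a consensus for a Pbx protein bound with a Hox partner, or CCAAT, the CCAAT box, on either strand. No match of one motif overlapped a match of the other in these windows.
Hoxa2: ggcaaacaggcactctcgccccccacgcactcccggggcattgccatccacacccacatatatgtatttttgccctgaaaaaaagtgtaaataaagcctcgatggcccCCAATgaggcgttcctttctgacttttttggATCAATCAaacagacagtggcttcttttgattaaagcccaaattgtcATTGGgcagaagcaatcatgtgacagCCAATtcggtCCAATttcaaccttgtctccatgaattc
Hoxd1: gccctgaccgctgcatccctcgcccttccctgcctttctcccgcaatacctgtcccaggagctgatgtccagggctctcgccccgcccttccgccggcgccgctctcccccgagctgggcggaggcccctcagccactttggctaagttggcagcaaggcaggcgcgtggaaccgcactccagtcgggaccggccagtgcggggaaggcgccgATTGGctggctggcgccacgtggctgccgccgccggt
Hoxd8: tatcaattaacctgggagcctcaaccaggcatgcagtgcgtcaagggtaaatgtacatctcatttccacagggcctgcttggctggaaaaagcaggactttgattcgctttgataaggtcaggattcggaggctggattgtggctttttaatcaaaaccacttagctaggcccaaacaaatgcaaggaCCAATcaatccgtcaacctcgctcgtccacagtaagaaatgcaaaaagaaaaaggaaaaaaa

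The Hoxa2 window held 1 match to TGATNNAT, 111 to 104 bases before the start on the minus strand of the gene, and 4 to CCAAT. The Hoxd1 and Hoxd8 windows held none to TGATNNAT and 1 each to CCAAT. Over the same 250 bases before the start, TGATNNAT was in 16.7% of the 24 Hox windows and in 7.68% of all 32851. CCAAT was in 58.3% of the Hox windows and in 33.8% of all. The Hoxd1 window is rich in G and C (71.6%), against 46.4% for Hoxa2 and 44.4% for Hoxd8. A match describes the letters and is not a binding site, and no match says only that these letters are not in this window.

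Hox transcripts were scarce in every group, and over all libraries together most came from the anterior end of the clusters. The 32 libraries held 2028 Hox counts in all. Of the 39 genes, 38 had a count somewhere and Hoxd12 had none in any library. Only 13 reached 10 counts in some library, 24 never passed 5, and 4 (Hoxa2, Hoxa3, Hoxd1 and Hoxd8) reached a group mean of 1 CPM. The 12 genes of paralogues 1 to 4 held 1419 counts, 70.0% of the total. By group, that share was 76.4%, 83.3%, 63.9% and 61.0% in WT from E12.5 to PND0. In KO it was 65.1%, 80.1%, 44.6% and 0%. Single libraries held 73.7%, 89.7% and 89.3% of these anterior counts in WT at E12.5, E16.5 and PND0. The 11 genes of paralogues 5 to 8 held 404 counts (19.9%) and the 16 genes of paralogues 9 to 13 held 205 (10.1%). By cluster, Hoxa held 777 counts, Hoxd 666, Hoxb 369 and Hoxc 216.

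The fall along the clusters was not even. Paralogue 2 had 475 counts, paralogue 3 had 436 and paralogue 1 had 347, most of them from Hoxd1. Paralogues 4 and 5 had 161 and 134. Paralogues 6 and 7 had 16 and 13, and then paralogue 8 stood at 241, with 226 of them from Hoxd8. Paralogues 9 to 12 had 59, 36, 6 and 1, and paralogue 13 had 103, nearly all from Hoxc13 (49) and Hoxd13 (48).

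**Figure D1:**
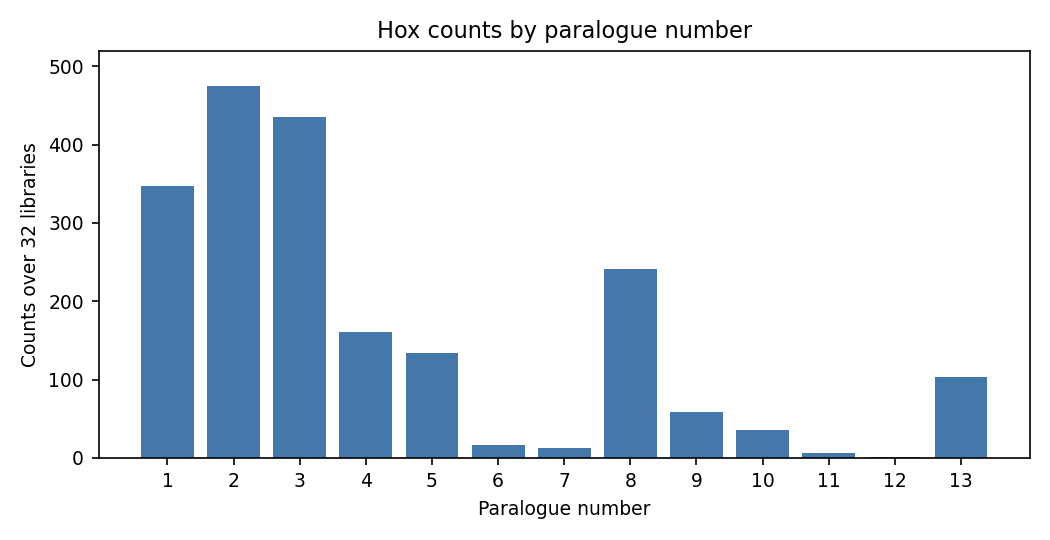
Counts over the 32 libraries (vertical axis) of all Hox genes by paralogue number (horizontal axis). Paralogues 1 to 3 stand highest, and paralogues 8 and 13 stand above their neighbours.

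The libraries of a group differed widely, and single libraries carried most of the Hox counts of some groups. At E12.5 the WT libraries held, in replicate order, 532, 117, 24 and 153 Hox counts, or 31.8, 7.18, 1.38 and 5.47 CPM. The exact 95% Poisson interval of the 532 counts is 488 to 579, so counting error does not span the gap to the next library. The KO libraries held 99, 26, 16 and 151 counts (7.64, 1.73, 0.962 and 9.13 CPM). WT replicate 1 held 64.4% of the counts of its group, and the ranges of the genotypes overlapped.

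At E14.5 no library stood far from the others of its group. The WT libraries held 37, 77, 33 and 105 counts (1.64, 2.69, 1.5 and 4.41 CPM) and the KO libraries 15, 39, 48 and 39 (0.669, 1.53, 2.79 and 2.02 CPM). The highest library was 2.94 times the lowest in WT and 4.17 times in KO.

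At E16.5 WT replicate 2 stood apart, with 129 counts against 22, 11 and 21 in WT replicates 1, 3 and 4 (7.43 CPM against 1.43, 0.658 and 1.34). The KO libraries held 76, 33, 27 and 50 counts (4.08, 2.27, 1.69 and 2.79 CPM), and each KO library was above 3 of the 4 WT libraries. At PND0 WT replicate 4 stood apart in the same way, with 97 counts against 6, 6 and 14 (4.92 CPM against 0.348, 0.387 and 0.794). The KO libraries held 7, 4, 9 and 5 counts (0.350, 0.264, 0.516 and 0.300 CPM).

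**Figure D2:**
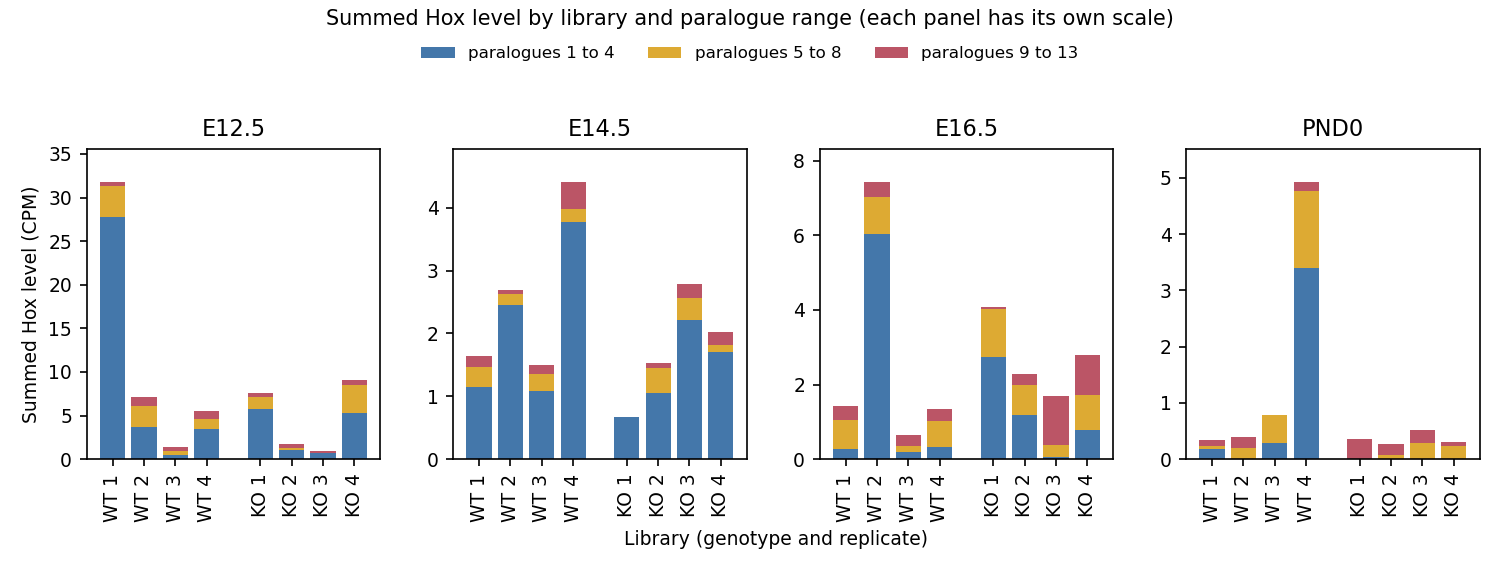
Summed level of the 39 Hox genes in CPM (vertical axis, a scale of its own for each stage) in each library (horizontal axis), split by paralogue number. E12.5 WT 1, E16.5 WT 2 and PND0 WT 4 are tallest in their stages, and paralogues 9 to 13 make up most of E16.5 KO 3.

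Paralogue 1 genes act first in the hindbrain. Hoxd1, known in the mouse for patterning pain-sensing neurons of the ganglia, was a gene of E12.5. It had 101, 41, 2 and 45 counts in the WT libraries and 22, 4, 2 and 52 in the KO libraries. At the other stages it had 1 count in 24 libraries, in E16.5 KO replicate 1. In WT the E12.5 mean of 2.57 CPM (SD 2.51, n = 4) was at least 83.1-fold above E14.5, with a floor of 3 counts over the 4 E14.5 libraries, and at least 45.7-fold above it without E12.5 WT replicate 1. In KO the mean of 1.31 CPM (SD 1.42, n = 4) was at least 36.8-fold above E14.5. Every E12.5 library was above every E14.5 library in both genotypes. Hoxb1, the identity gene of the facial motor nucleus segment, had 2 counts in all, both in E12.5 WT replicate 1.

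Paralogues 2 and 3 mark the hindbrain from its anterior segments backwards. Hoxa2, which patterns the anterior hindbrain and the neural crest of the second pharyngeal arch, was the most counted Hox gene. At E12.5 it had 98, 4, 5 and 3 counts in WT and 26, 5, 3 and 3 in KO, so that replicate 1 stood apart in both genotypes. At E14.5 it had 13, 21, 8 and 49 counts in WT and 4, 18, 28 and 18 in KO, with counts in all 8 libraries. At E16.5 it had 0, 25, 0 and 0 in WT and 6, 2, 0 and 6 in KO. At PND0 it had 1, 0, 1 and 18 in WT and none in the 4 KO libraries.

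Hoxa3, needed for the thymus, the parathyroid and the posterior hindbrain, was highest in the same WT library as Hoxa2 at each stage, while the order in KO differed. It had 65, 4, 0 and 20 counts in WT and 10, 1, 0 and 17 in KO at E12.5, and 5, 5, 0 and 12 against 0, 1, 0 and 1 at E14.5. At E16.5 it had 0, 35, 0 and 0 in WT and 9, 2, 0 and 2 in KO. At PND0 WT replicate 4 had 14 counts and the other 7 libraries had 0.

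Hoxb2, a partner of Hoxa2 in the anterior hindbrain, had 48, 1, 0 and 2 counts in WT and 7, 3, 0 and 2 in KO at E12.5. It had 2, 7, 7 and 7 against 0, 5, 3 and 4 at E14.5, 0, 4, 1 and 0 against 2, 0, 0 and 1 at E16.5, and 2, 0, 0 and 2 against none at PND0. Hoxb3 had 60 counts in E12.5 WT replicate 1 and 0 in the other 7 libraries of that stage. At E14.5 it had 2, 15, 0 and 8 in WT and 3, 0, 4 and 5 in KO. It had 0, 17, 0 and 2 against 15, 0, 0 and 3 at E16.5, and at PND0 10 in WT replicate 4 and 0 elsewhere. In E12.5 WT replicate 1, paralogues 2 and 3 together gave 330 of the 532 Hox counts, 62.0%. Hoxd3 gave 59 of its 89 counts in that library.

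**Figure D3:**
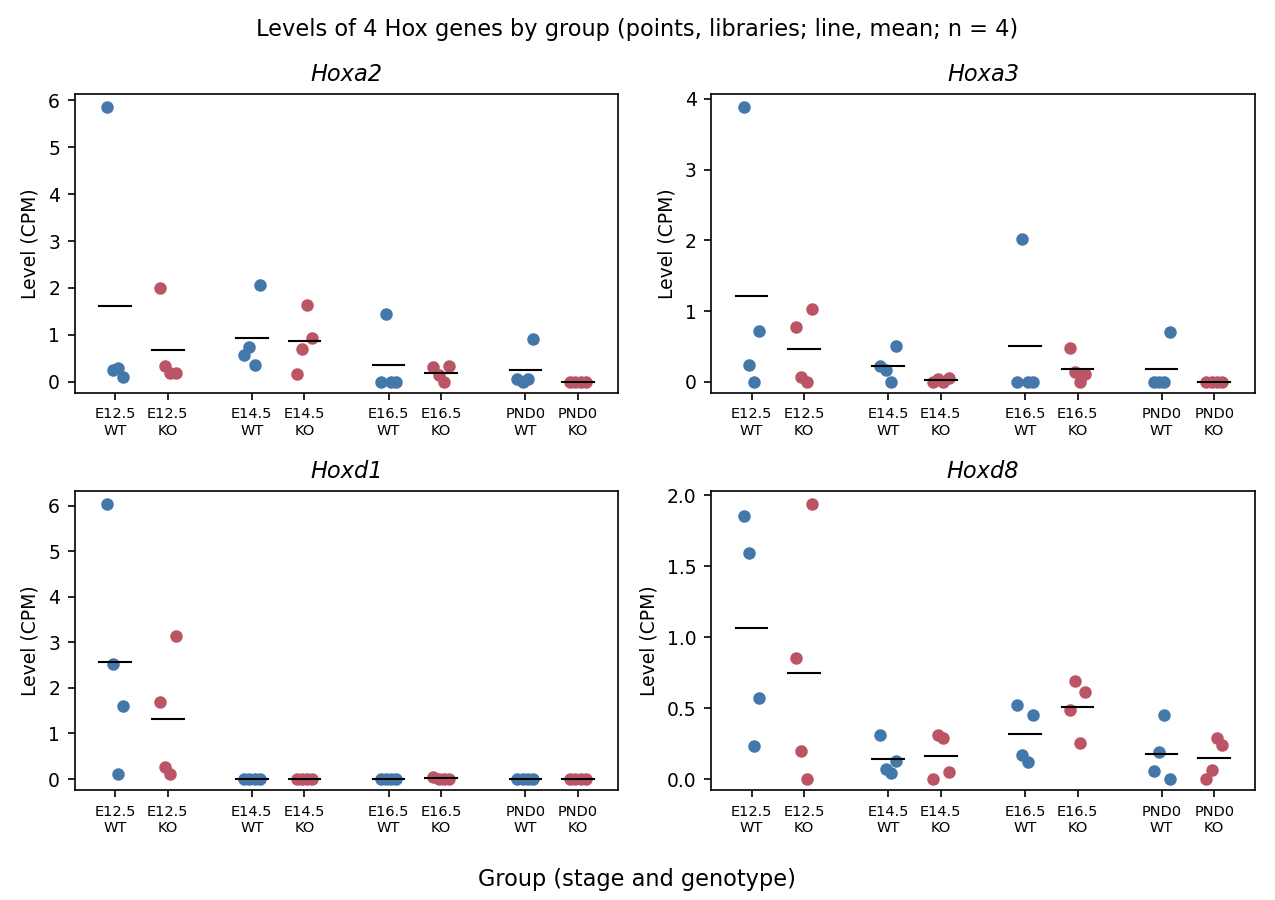
Levels of Hoxa2, Hoxa3, Hoxd1 and Hoxd8 in CPM (vertical axis) in the 8 groups (horizontal axis), with points for libraries and a line for the mean of 4. Hoxd1 is at 0 in nearly every library after E12.5, and single WT libraries stand apart for Hoxa2 and Hoxa3.

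Paralogues 4 and 5 begin at the border of hindbrain and spinal cord. Hoxb4 had 8, 1, 1 and 1 counts in WT and 0, 1, 2 and 3 in KO at E12.5. It had 0, 13, 3 and 4 against 3, 0, 1 and 0 at E14.5, 3, 6, 0 and 1 against 5, 2, 1 and 0 at E16.5, and none at PND0. Hoxc4 had 9, 1, 0 and 5 counts in WT and 1, 0, 0 and 1 in KO at E12.5, and 1, 0, 1 and 0 against 2, 0, 0 and 0 at E14.5. At E16.5 it had 1, 7, 0 and 0 against 5, 5, 0 and 0. Hoxc5, a gene of cervical motor neurons, had 13, 8, 0 and 9 counts in WT and 3, 0, 0 and 6 in KO at E12.5. It had 0, 0, 5 and 0 against 0, 2, 1 and 1 at E14.5, and 0, 2, 0 and 0 against 2, 1, 0 and 1 at E16.5.

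The newborn brain of WT replicate 4 stood apart for these genes. It had 15 counts for Hoxc4, 13 for Hoxa5, which is needed for the lung and for breathing, 9 for Hoxc5, 8 for Hoxa4 and 5 for Hoxb5. The other 7 PND0 libraries had 0 for each of the 5. Paralogues 3 to 5 gave 74 of its 97 Hox counts, and 4 in the other 7 libraries, all from Hoxd3 in WT replicate 3.

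Paralogues 6 to 8 belong to the brachial and trunk levels. Hoxd8 was detected in 28 of the 32 libraries, more than any other Hox gene, and kept counts at every stage. It had 31, 26, 4 and 16 in WT and 11, 3, 0 and 32 in KO at E12.5, and 7, 2, 1 and 3 against 0, 8, 5 and 1 at E14.5. It had 8, 3, 2 and 7 against 9, 10, 4 and 11 at E16.5, and 1, 3, 8 and 0 against 0, 1, 5 and 4 at PND0. At PND0 it was at 0 in WT replicate 4, the library highest in the anterior genes. Its neighbours along the paralogue series were near 0. Hoxc6, a gene of forelimb motor neurons, had 12 counts over 9 libraries and at most 3 in any. Hoxa7 had 12 counts over 7 libraries, with 3 in E12.5 WT replicate 1, 4 in E16.5 KO replicate 4 and 1 in each of the other 5. Hoxa6 and Hoxb7 had 1 count each.

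Paralogues 9 to 13 belong to the lower trunk, tail, limbs and genital region. They had counts at all stages, but mostly 1 to 5 in a library. Hoxd13, the digit and genital gene, had 0, 1, 3 and 4 counts in WT and 1, 5, 3 and 3 in KO at E12.5. It had 4, 1, 2 and 3 against 0, 1, 2 and 3 at E14.5, 0, 2, 2 and 0 against 0, 2, 5 and 1 at E16.5, and 0 in all 8 PND0 libraries. Its level thus showed no library that stood apart. Hoxc13, the gene of hair and nail keratins, had 4, 10, 0 and 15 counts in WT and 4, 0, 0 and 3 in KO at E12.5. It had 2 in E14.5 WT replicate 4, 2 in E16.5 WT replicate 2, 1 and 2 in E16.5 KO replicates 3 and 4, and 4 and 2 in PND0 KO replicates 1 and 3.

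Hoxb9 had 24 counts over 12 libraries, with the most (5) in E14.5 WT replicate 4 and 3 in each of PND0 WT replicates 2 and 4 and KO replicate 2. Hoxc10, a gene of lumbar motor neurons, had 3 and 2 counts in E12.5 WT replicates 2 and 3. At E16.5 it had 3, 3, 2 and 2 in WT and 0, 1, 0 and 2 in KO, and it had none at E14.5 or PND0. E16.5 KO replicates 3 and 4 shared a block at the far end of Hoxa. Hoxa9, Hoxa10 and Hoxa11 had 4, 7 and 2 counts in replicate 3 and 3, 5 and 1 in replicate 4, which is 22 counts in these libraries against 8 in the other 30. Hoxa11, the forearm and foreleg gene, had its 3 counts there. Hoxc12 had 1 count, in E12.5 KO replicate 4.

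**Figure D4:**
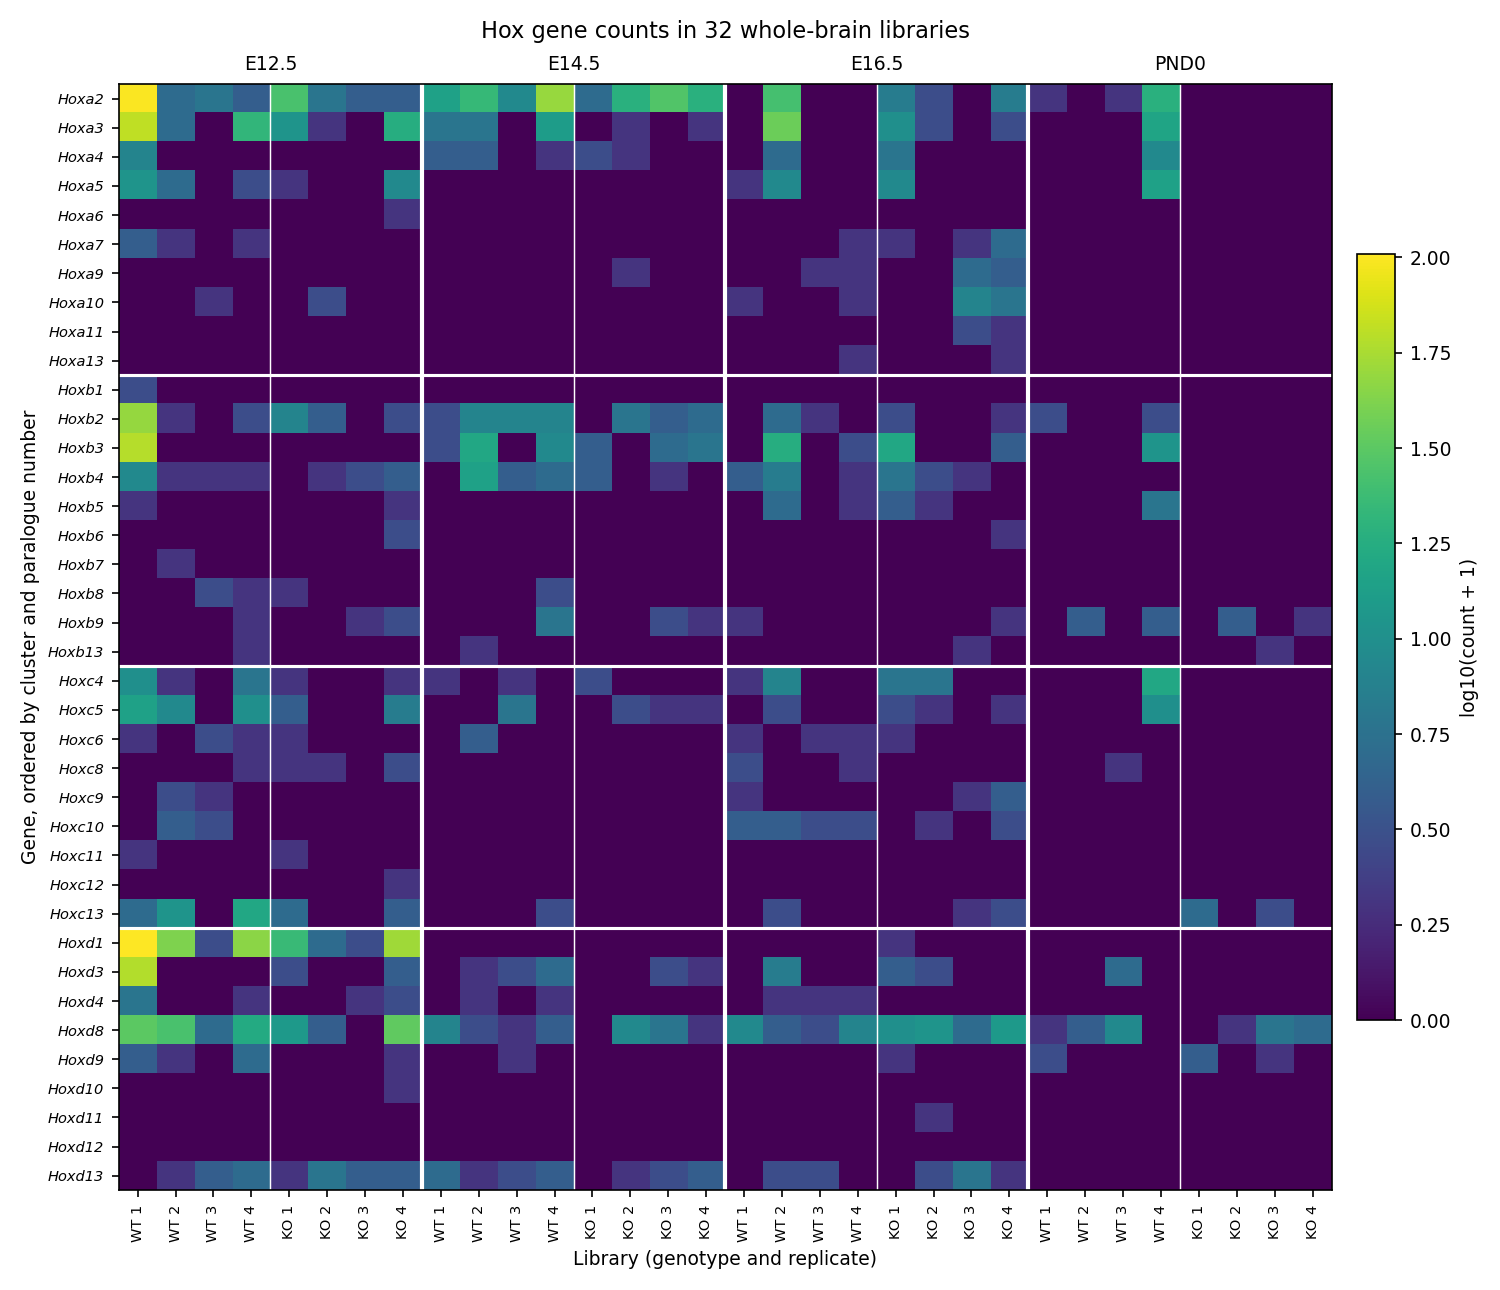
Counts of the Hox genes reported here (rows, ordered by cluster and paralogue number) in the 32 libraries (columns), coloured by log10 of the count plus 1. The columns E12.5 WT 1, E16.5 WT 2, E16.5 KO 1 and PND0 WT 4 are bright in paralogues 2 to 5, and Hoxd1 is bright at E12.5.

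Markers of hindbrain neurons and of tissues outside the brain also differed between libraries. A fixed list of 15 genes of brainstem and spinal neurons, among them Slc6a5 and Tph2, had a summed level of 92.7 CPM in E12.5 WT replicate 1 and 61.2 in E12.5 KO replicate 1. The other 6 E12.5 libraries were at 9.75 to 33.3. At E14.5 it ran from 26.8 to 34.1 in WT and from 26.1 to 35.6 in KO. At E16.5 it was 46.2 in WT replicate 2 and 4.88 to 10.2 in the other WT libraries, and 38.6, 25.3, 9.73 and 28.8 in KO. At PND0 it was 11.9, 26.3, 49.4 and 36.9 in WT and 14.7, 16.3, 8.38 and 7.74 in KO. Of the list, 9 to 15 genes had counts in a library. The library with the fewest was E16.5 WT replicate 1, where Phox2a, Lbx1, Dbh, Fev and Mnx1 were among those at 0.

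The 2 libraries highest in paralogues 2 and 3 at E12.5 and the 2 highest at E16.5 were also the highest of their stage in this list. The order was not the same throughout. E12.5 KO replicate 4, next in paralogues 2 and 3 (1.51 CPM), had 20.3 CPM in the list. PND0 WT replicate 3 had the highest list level of its stage, with 260 counts for Slc6a2 and 156 for Tph2, but 14 Hox counts against 97 in replicate 4. E12.5 WT replicate 2 had a low list level (9.75 CPM) and 117 Hox counts. In a bulk sample, fewer hindbrain or spinal cells and less Hox RNA in each cell cannot be told apart.

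Hoxd1 and Hoxc13 went with another list at E12.5. The 6 epidermis genes summed to 164, 78.9, 18.1 and 70.9 CPM in the WT libraries and 72.2, 18.3, 19.7 and 70.7 CPM in the KO libraries. The 5 libraries at 70.7 CPM or more had 22 to 101 Hoxd1 counts and 3 to 15 Hoxc13 counts. The other 3 had 2 to 4 Hoxd1 counts and no Hoxc13 count. The keratin Krt5 had 343 to 1087 counts in the former and 11 to 23 in the latter, and Krt14 was at 0 in KO replicates 2 and 3. Krt10, of the same list, did not follow the split, at 154 to 308 counts against 158 to 208. Nor was the split particular to these genes. Hoxd8 had 11 to 32 counts against 0 to 4, and the sclerotome gene Pax1 had 76 to 482 against 2 to 27. At E14.5 the list stood at 9.01 to 15.1 CPM, almost all from Krt10 and Lor, and Krt5 at 0 to 4 counts. E16.5 KO replicate 4, with Hoxa9 to Hoxa13, had 53.8 CPM and 363 Krt5 counts, against 23.5 to 28.7 CPM and 0 to 18 counts in the other E16.5 libraries. E16.5 KO replicate 3, which also had Hoxa9, Hoxa10 and Hoxa11, had 27.8 CPM and 18 Krt5 counts.

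E12.5 WT replicate 1 was also highest of its stage in 4 further lists. Skeletal muscle genes (7 of 7 with counts) were at 147 CPM against 7.46 to 42.3 in the other 7 libraries. Cartilage and sclerotome genes (7 of 7) were at 709 against 305 to 427. Genes of peripheral neurons and Schwann cells (5 of 5) were at 80.5 against 16.9 to 34.1, and those of meninges and fibroblasts (8 of 8) at 2420 against 471 to 2090. It was lowest in the forebrain list, at 641 CPM against 932 to 1369. The part of these tissues in the Hox levels was not tested.

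**Figure D5:**
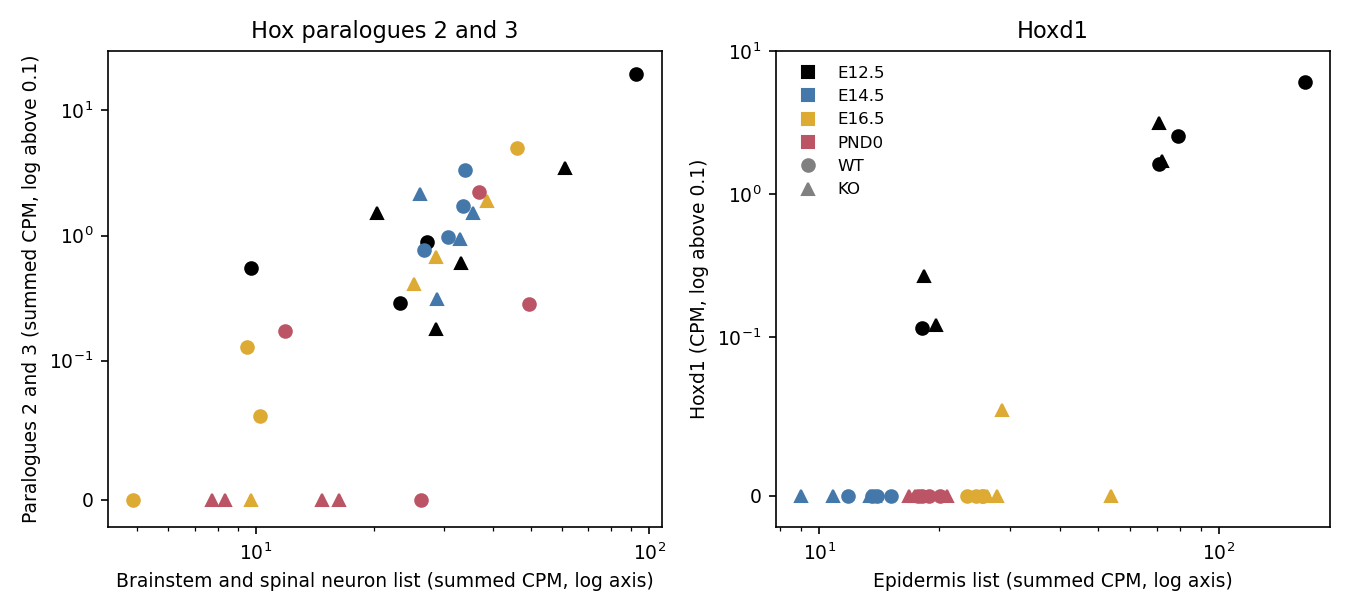
Left, summed level of paralogues 2 and 3 against that of the brainstem and spinal neuron list; right, Hoxd1 against the epidermis list, all in CPM with 1 point per library (circles WT, triangles KO, colours for stage). E12.5 WT replicate 1 is at the upper right of both panels, and the 5 E12.5 libraries at 70.7 CPM or more in the epidermis list have the 5 highest Hoxd1 levels.

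The comparison of KO with WT asked whether loss of Dhcr7 altered Hox transcripts at a stage. No Hox gene passed the threshold, a Benjamini-Hochberg adjusted p under 0.05 in edgeR's quasi-likelihood test over all genes with enough counts. Few could be tested. At E12.5, 3 had enough counts and 0 were called, beside 0.0177% of all genes tested. Hoxd8 had a log2 fold change of -0.49 (SE 0.915, adjusted p 0.943), Hoxd1 of -0.99 (SE 0.999, adjusted p 0.908) and Hoxa3 of -1.39 (SE 1.23, adjusted p 0.899). At E14.5 Hoxa2 alone was tested and was not called, at -0.16 (SE 0.580, adjusted p 0.973), beside 0.527% of all genes. At E16.5 and PND0 none of the 39 was tested, and the share called among all genes was 0.0462% and 1.44%. Of the 4 tests made, 0 had an unadjusted p under 0.05, as 4.7%, 8.73%, 11.5% and 18.0% of all genes did from E12.5 to PND0.

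With no filter on low counts, 34, 20, 31 and 16 Hox genes entered from E12.5 to PND0 and 0 were called in edgeR (background 0.00912%, 0.435%, 0.678% and 3.25%). At an unadjusted p under 0.05 there were 0, 1, 1 and 8, namely Hoxa3 at E14.5, Hoxa10 at E16.5, and at PND0 Hoxa2, Hoxa3, Hoxa4, Hoxa5, Hoxb3, Hoxc4, Hoxc5 and Hoxc13. The share of all genes at that threshold was 4.22%, 7.31%, 9.19% and 13.6%. The lowest adjusted p was 0.0666, for Hoxa2 at PND0, where 18 of its 20 WT counts came from replicate 4. Hoxa3, Hoxa4, Hoxa5, Hoxb3, Hoxc4 and Hoxc5 had all their PND0 counts in WT replicate 4. Hoxc13 went the other way, with 0 counts in WT and 6 in KO. DESeq2 gave an adjusted p to 10 Hox genes at E12.5 and called 0 of them (background 0.129%), and gave none at the later stages, where it called 1.13%, 2.35% and 7.24% of the genes it adjusted. At an unadjusted p under 0.05 it had 0, 1, 0 and 1, namely Hoxa3 at E14.5 and Hoxa2 at PND0, beside 3.48%, 4.34%, 5.48% and 10.3% of all genes.

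The mean summed level in KO, as a fraction of that in WT, was 0.425, 0.685, 0.998 and 0.222 from the first stage to the last. On the log2 scale these are -1.23, -0.55, -0.00 and -2.17, beside pooled SDs of the library values of 1.73, 0.81, 1.11 and 1.29. The groups overlapped at each stage, and the E12.5, E16.5 and PND0 ratios leaned on single libraries. At E14.5 the value ran from -0.86 to -0.15 with each library left out in turn. Without WT replicate 1 the E12.5 value was 0.06, without WT replicate 2 the E16.5 value was 1.24, and without WT replicate 4 the PND0 value was -0.51. No p is given for these sums.

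In PND0 KO the paralogues 1 to 4 had 0 counts in all 4 libraries, against 75 counts in WT. The WT mean of 0.965 CPM was at least 22.3-fold above KO, with a floor of 3 counts over the 4 KO libraries. Of the 75 counts, 67 were in WT replicate 4, and without it the bound is 3.52-fold. WT replicate 2 also had none. The 25 Hox counts of the PND0 KO libraries came from Hoxd8 (10), Hoxc13 (6), Hoxd9 (4), Hoxb9 (4) and Hoxb13 (1).

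A single Hox gene had groups that did not overlap between genotypes at a stage, Hoxc10 at E16.5. Its 10 WT counts and 3 KO counts gave levels that touched at 2 counts but were apart in CPM, and 4.06% of genes with a count did not overlap at that stage. At E12.5, E14.5 and PND0 the Hox count was 0, beside 2.24%, 3.2% and 6.96% of genes. A test of whether the KO effect changed with stage took in 4 Hox genes and called 0, beside 0.0256% of all genes. Their adjusted p values were 0.777 (Hoxa2), 0.885 (Hoxa3), 0.917 (Hoxd8) and 0.976 (Hoxd1), and 0 had an unadjusted p under 0.05. With no filter 38 entered and 0 were called (background 0.0282%), with Hoxc13 at an unadjusted p under 0.05, beside 8.34% of all genes. DESeq2 gave none of the 39 an adjusted p there.

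The stage steps asked how Hox transcripts changed as the brain grew, within each genotype. Neighbouring steps share the libraries of the stage between them, so they are not independent. In WT the mean summed level went from 11.4 CPM at E12.5 to 2.56, 2.71 and 1.61 CPM, and in KO from 4.87 to 1.75, 2.71 and 0.357 CPM. The log2 steps were -2.16, 0.09 and -0.75 in WT and -1.47, 0.63 and -2.92 in KO, with pooled SDs of 1.41, 1.16 and 1.63 and of 1.29, 0.73 and 0.48. Without E12.5 WT replicate 1 the first WT step was -0.87. Without E16.5 WT replicate 2 the next 2 WT steps were -1.16 and 0.50, and without PND0 WT replicate 4 the last was -2.41. At the last KO step the summed levels of the groups did not overlap. Of the 29 single Hox genes with counts there, 0 separated, beside 26.5% of all genes with a count. In KO, E16.5 ran from 1.69 to 4.08 CPM and PND0 from 0.264 to 0.516.

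Of single genes, edgeR could test Hoxa2 alone, in 3 of the 6 steps, and called it in none. Its log2 fold change at the first step was -0.77 in WT (SE 1.17, adjusted p 0.598) and 0.40 in KO (SE 0.806, adjusted p 0.704). At the WT step to E16.5 it was -1.29 (SE 1.21, adjusted p 0.401). None had an unadjusted p under 0.05. The share of genes called at the steps was 57.8%, 57.5% and 53.2% in WT and 49.3%, 61.4% and 48.2% in KO. The call on Hoxa2 turned on 1 library: without E12.5 WT replicate 1 it was higher at E14.5 than at E12.5 (2.20, adjusted p 0.0163), and without E12.5 KO replicate 1 the same held in KO (1.83, adjusted p 0.0258). Without E16.5 WT replicate 2 it was lower at E16.5 than at E14.5 (-7.28, adjusted p 0.00229, all 3 remaining E16.5 libraries at 0). In KO, Hoxa2 entered the step from E14.5 to E16.5 in 5 fits without 1 library and was called lower in each, at -2.32 to -1.58. In all these fits with a call, Hoxa2 passed the filter only through E14.5 libraries, where it is high. The filter thus favoured that direction, and these calls are not support for a change.

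The filter kept Hoxd1 and Hoxd8 out of the step from E12.5, and other settings called them lower at E14.5. DESeq2 gave Hoxd1 an adjusted p of 1.03e-05 in WT and 2.67e-06 in KO, and fitting all 32 libraries at once gave 0.00108 and 0.00483. That joint fit tested 4 Hox genes and called 2 in each genotype, near its share over all genes of 53.0% in WT and 50.6% in KO. With no filter edgeR did not call Hoxd1, at adjusted p 0.101 in WT and 0.076 in KO. In WT, Hoxd8 was at -2.95 by DESeq2 (adjusted p 0.00078) and at -2.89 by the joint fit (adjusted p 0.0069). In KO the latter gave -2.14 (adjusted p 0.0498). Leaving out E12.5 WT replicate 3, or any of the 4 E14.5 WT libraries, let both into the WT test, and both were called lower each time. Those fits tested 3 or 4 Hox genes, called 2, and called 51.9% to 59.7% of all genes. In them Hoxd1 and Hoxd8 passed the filter only through E12.5 libraries, where they are high. The fits also share libraries, so these calls are not support for a fall. In the joint fit, too, Hoxd1 entered only through E12.5 libraries. The share of genes called at this step was 43.9% in WT and 38.3% in KO with DESeq2. Hoxd1 was the only Hox gene with groups that did not overlap at this step, in either genotype, beside 32.4% of genes in WT and 28.8% in KO. Hoxc10 was higher at E16.5 than at E14.5 and PND0 in WT without overlap, by at least 4.98-fold and 3.59-fold, on 10 counts (background 30.4% and 27.8%). In KO it did not separate at either step.

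Other low genes were called at a step under 1 or both of these settings, on few counts. With no filter the calls were Hoxa5, Hoxc13 and Hoxd8 (lower) at WT E14.5, Hoxa5 and Hoxc10 (higher) at WT E16.5 and Hoxb4 and Hoxc10 (lower) at WT PND0, beside 31.6%, 31.8% and 29.2% of genes. In KO they were Hoxa3 (lower) at E14.5, beside 25.5% of genes, and Hoxd8, Hoxa5 and Hoxa10 (higher) with Hoxa2 (lower) at E16.5, beside 34.2%. At PND0 in KO they were Hoxa2, Hoxa3, Hoxa10, Hoxb3 and Hoxc4 (lower), beside 26.2%. DESeq2 also called Hoxa5 and Hoxc13 lower at WT E14.5, Hoxc10 higher at WT E16.5 (background 42.3%), Hoxa3 lower at KO E14.5 and Hoxa2 lower at KO E16.5 (background 43.2%). It called 0 at the PND0 steps, beside 40.0% in WT and 37.0% in KO, with 1 and 4 at an unadjusted p under 0.05. At each step and under both settings, the share of tested Hox genes called was below that of all genes.

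Partners and regulators of the Hox genes were measured from fixed lists. The TALE cofactors, the Meis, Pbx and Pknox proteins that bind DNA with Hox proteins, were abundant, at 888 to 1214 CPM summed over 9 genes. At PND0, 1 of 9 rose in KO, Meis3, and at the other stages none passed (1, 0 and 0 at an unadjusted p under 0.05), with medians of -0.01, -0.03 and 0.04 on the log2 scale. The list's median at PND0 was 0.13, and over all genes tested it was 0.00 at each stage. Meis3 was at 61.7, 64.6, 52.4 and 59.9 CPM in WT and 80.0, 76.2, 88.3 and 80.3 CPM in KO at PND0, with no overlap (log2 fold change 0.45, SE 0.0883, adjusted p 0.0251).

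Of the 8 chromatin regulators that open or silence Hox clusters, Kmt2a, the methyltransferase that keeps Hox genes active, fell at PND0. It was at 232, 250, 268 and 240 CPM in WT and 189, 174, 154 and 186 CPM in KO (log2 fold change -0.49, SE 0.0797, adjusted p 0.01). The Polycomb genes Ezh2, Eed, Suz12, Bmi1, Ring1, Rnf2 and Cbx2 did not pass at any stage. At an unadjusted p under 0.05 the list had 0, 2 and 2 genes from E12.5 to E16.5. Of the 15 upstream regulators, the Cdx genes, hindbrain segment factors and retinoic acid genes, 8 or 9 were tested and 0 passed at any stage. At an unadjusted p under 0.05 there were 4, 0, 0 and 1 from E12.5 to PND0, beside the 4.7%, 8.73%, 11.5% and 18.0% of all genes given above. Their median was -0.64 at E12.5, where WT replicate 1 had 546 counts of Aldh1a2, the enzyme that makes retinoic acid, against 27 to 251 in the other 7 libraries.

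In the brainstem and spinal list, Slc6a5, the glycine transporter of inhibitory brainstem and spinal neurons, fell at PND0. It was at 1.27, 1.74, 4.59 and 5.79 CPM in WT and 0.400, 0.528, 0.344 and 0.240 CPM in KO (log2 fold change -3.14, SE 0.520, adjusted p 0.012). The groups did not overlap. It was 1 of 8 tested genes of the list, whose median was -0.78. In the midbrain list Gata2, a factor of inhibitory midbrain neurons, fell at E14.5, from 17.1, 17.2, 19.5 and 19.5 CPM in WT to 13.3, 15.1, 14.4 and 13.5 CPM in KO (log2 fold change -0.38, SE 0.0874, adjusted p 0.0257). No other gene of the 16 lists passed between genotypes.

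Noncoding transcripts of the clusters were low, and some, but not all, held their counts in the libraries high in Hox genes. Hoxaas2 had 120 counts in E12.5 WT replicate 1 and 0 to 15 in the other 7 E12.5 libraries, and 23 in E16.5 WT replicate 2 against 0 in the other E16.5 WT libraries. Hotairm1, of the Hoxa cluster, had 25, 9, 0 and 18 counts in WT and 10, 1, 3 and 13 in KO at E12.5. Halr1 did not follow the Hox counts at that stage, with 24, 24, 31 and 43 in WT and 15, 13, 36 and 19 in KO. Of the 18 listed, 17 are in the tables and 0 to 3 had enough counts for a test. Genes just outside the clusters were measured in every group. Evx2, beyond Hoxd13, had 32 to 206 counts at E12.5 and 0 in E16.5 WT replicate 1. Skap2, next to the Hoxa cluster, had 72 to 159 counts in every library.

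The genes most like the summed Hox level were sought among the 16064 genes that averaged 1 CPM or more, by the Pearson correlation of log2 CPM over the 32 libraries after subtracting each group's mean. Among the highest were Dnajc25 (r = 0.79), Skap2 (0.75), Tmem26 (0.75), Col7a1 (0.73), Erg (0.72), Fbn1 (0.71), Vgll3 (0.70), Frem1 (0.70) and Tnfaip6 (0.70). These are a description, with no p, and the points share libraries and their depth. Col7a1 and Frem1 encode proteins of the skin's basement membrane, Fbn1 a connective tissue fibre and Erg an endothelial factor. Tmem26 was at 53.6 CPM in E12.5 WT replicate 1 and 5.17 to 16.4 CPM in the other 7 E12.5 libraries, and Fbn1 at 154 CPM against 34.6 to 99.8.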

How the data were processed

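Counts of reads per gene were deposited by the authors, as 1 table for each stage with 8 libraries. Per the submitters' processing notes, HISAT2, SAMtools, featureCounts and DESeq2 were used with build mm10. Versions, annotation and strand setting are not given in the sources used here. The 39 members and all gene lists were chosen with earlier results of these data known, and paralogues were grouped as 1 to 4, 5 to 8 and 9 to 13 after their values were seen.

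edgeR 4.0.16 (R 4.3.3) was fitted to the deposited counts by quasi-likelihood with TMM scaling, the filterByExpr filter (minimum count 10, minimum total 15) and robust dispersion. Each comparison used its own groups, and p-values were adjusted by Benjamini-Hochberg over all genes tested, with a threshold of 0.05. Levels are CPM, with totals scaled by TMM over 32 libraries. DESeq2 1.42.0, RLE size factors, no filter, a fit of all libraries, a replicate block and leaving out each library were alternatives. Values in every library are given for the 2 most counted genes of each cluster and the most counted of each paralogue number. Hoxc6 and Hoxb9 are exceptions, given by total and highest counts only. Outside the set, list genes past the threshold between genotypes and the genes most like the summed level are named. Some items are not reported here by name. Other genes named were chosen after their values were seen. Positions and exon lengths are from GENCODE M21, and promoters from RefSeq. Tested on simulated data, the E12.5 comparison recovered 178 of 200 genes changed 2-fold, among 16737 genes, and the E14.5 comparison 200 of 200 among 17593. False calls numbered 10 and 9. The changed genes were drawn only from genes with higher mean levels than any Hox gene. The recovery therefore says nothing about the power to detect a change in a Hox gene. Libraries of a group differed by 2.90 to 115 times the counting variance, so none was a copy. Same-numbered WT and KO libraries correlated from -0.269 to 0.283 in their deviations from the group means, and differently numbered ones from -0.436 to 0.433. Replicate numbers thus showed no sign of pairing, which so few libraries cannot exclude. The depth of 13.87 to 28.32 M counts sets the limit of 0.105 to 0.231 CPM that a count of 0 allows.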

Additional observations from a re-analysis of the deposited data

Results flagged for a closer look

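Single libraries lay far from the other 3 of their group in 12 of 64 combinations of a gene set and a group. The rule was a Dixon ratio, the gap to the next library over the range of the group, above 0.829. That limit marks about 1 in 20 for normally distributed values, which was not checked for these sums, so no chance rate is given. For all 39 Hox genes these were E16.5 WT replicate 2, at 7.43 CPM with 1.43 in the next library, and PND0 WT replicate 4, at 4.92 CPM with 0.794 in the next. For paralogues 1 to 4 they were E12.5 WT replicate 1 (27.8 CPM, next 3.68), E16.5 WT replicate 2 (6.04, next 0.320) and PND0 WT replicate 4 (3.40, next 0.283). The same libraries stood apart in the Hoxa cluster, at 11.1, 4.15 and 2.69 CPM with 1.64, 0.320 and 0.0579 in the next. In the Hoxb cluster E12.5 WT replicate 1 was at 7.10 CPM (next 0.214) and E16.5 WT replicate 2 at 1.78 (next 0.260). In the Hoxc cluster PND0 WT replicate 4 was at 1.22 CPM (next 0.0567), and E16.5 KO replicate 3 was lowest, at 0.125 CPM from 2 counts, with 0.430 in the next. The sets share genes, so these are not separate observations. All but the last are high WT libraries.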

How the results depend on the processing

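The count of 0 Hox genes past the threshold between genotypes held at E12.5 and E14.5 under every alternative run that tested a Hox gene, and 0 were called under every interaction alternative that did so. RLE size factors changed no count. Of the stage steps, WT E12.5 to E14.5 had 3 calls with no filter, 4 with DESeq2 and 2 of 4 tested in the fit of all 32 libraries, which called 53.0% of all genes. WT E14.5 to E16.5 had 2 with no filter and 1 with DESeq2, and WT E16.5 to PND0 had 2 with no filter. KO E12.5 to E14.5 had 1 with no filter, 2 with DESeq2 and 2 in the fit of all libraries. KO E14.5 to E16.5 had 4 with no filter and 1 with DESeq2, and KO E16.5 to PND0 had 5 with no filter. With no filter more genes were tested; for the rest the cause was not tested. Leaving out each library gave 0 to 2 calls at WT E12.5 to E14.5, 0 to 1 at WT E14.5 to E16.5, 0 to 1 at KO E12.5 to E14.5, and 1 in each of the 5 fits of KO E14.5 to E16.5 that tested a Hox gene. These fits tested 1 to 4 Hox genes each. In the same order they called 51.3% to 59.7%, 53.4% to 55.3%, 40.3% to 56.1% and 57.4% to 60.2% of all genes. Fits that tested none give no value. A call on a gene that passed the filter only through the stage where it is high is not support for a change.

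For the summed level, leaving out each library moved the log2 ratio of KO to WT from -1.73 to 0.06, -0.86 to -0.15, -0.33 to 1.24 and -2.51 to -0.51 at the 4 stages, in their order. In the same order the WT steps ran from -2.56 to -0.87, -1.16 to 0.48 and -2.41 to 0.50, and the KO steps from -1.82 to -0.98, 0.36 to 0.95 and -3.15 to -2.65. In an alternative chosen after seeing the data, the E12.5 ratio without both replicates 1 was -0.25, and the E16.5 ratio without WT replicate 2 and KO replicate 1 was 0.98. Scaling by library totals or RLE kept each ratio within its spread.

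With the replicate block, 0 Hox genes were called at E12.5 and E14.5 and in the interaction, and none was tested at E16.5 or PND0. Over all genes the block gave 6, 131, 5 and 356 calls from E12.5 to PND0, against 3, 94, 8 and 250 without it. The pairing has no support in the labels. Values of single genes outside the Hox set were not taken from the fits without 1 library. At PND0 the number of all genes called went from 250 to 35 without WT replicate 3 and to 38 without KO replicate 1. It was 263 without WT replicate 2. Whether Meis3, Kmt2a and Slc6a5 were still called in those fits was not examined. Depth limits most of the 39 genes: 24 never passed 5 counts, and few of the 39 passed the filter for a test.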

Other observations

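The number of Hox genes with a count in a group was 30, 19, 25 and 14 in WT and 26, 14, 29 and 5 in KO, from the earliest stage to birth. Genes with counts in all 4 libraries of a group were fewer. At E12.5 these included Hoxa2, Hoxb4, Hoxd1 and Hoxd8 in WT and Hoxa2, Hoxd1 and Hoxd13 in KO. At E14.5 they were Hoxa2, Hoxb2, Hoxd8 and Hoxd13 in WT and Hoxa2 in KO, and at E16.5 Hoxc10 and Hoxd8 in WT and Hoxd8 in KO. At PND0 no Hox gene had a count in all 4 libraries of either genotype.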
